A study of Mus musculus with 10 samples.

Results

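The 35 genes described here form the core of the transforming growth factor beta (TGF-beta) and bone morphogenetic protein (BMP) pathway in the mouse: 11 ligands, 3 activin and inhibin subunits, 9 receptors, 8 SMAD proteins and 4 secreted antagonists. They were taken by name from 21887 protein-coding genes, and every cytosine with at least 5 reads in both libraries inside a gene's span or within 2 kb of it was counted as belonging to that gene. This gave 11140 cytosines in 7344 CpG dinucleotides, out of 6745376 cytosines in 4489220 CpGs across the genome. The genes were listed by name and not by a measured value, but with earlier results of these data known. The assay was reduced representation bisulfite sequencing (RRBS), a readout of DNA methylation in which DNA cut with restriction enzymes that favour CpG-rich fragments is treated with bisulfite so that unmethylated cytosines are read as thymine. The cells were spermatogonia, the premeiotic germ cells of the testis, from pups at postnatal day 6 of the LT-11B6 line, which carries an Id4-eGfp transgene on a C57BL/6 background. All cells were ID4-EGFP+, so both groups share the transgene and the EGFP gate, and they were separated by staining for the surface protein TSPAN8 into the brightest (TSPAN8-high) and the dimmest positive (TSPAN8-low) fractions. Each group is 1 library made from DNA of 5 pooled sorts, so no spread between animals or sorts can be given. The histone samples of the same study were not analysed here.

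As background, ligands of this family are secreted dimers that bring together type I and type II serine/threonine kinase receptors. The type I receptor then phosphorylates a receptor-regulated SMAD (SMAD2 and SMAD3 for TGF-beta and activin, SMAD1, SMAD5 and SMAD9 for BMPs), which enters the nucleus with SMAD4. SMAD6 and SMAD7 inhibit the cascade inside the cell, and NOG, CHRD, GREM1 and FST bind ligands outside it. In the testis, activins, inhibins and BMP4 are known signals between Sertoli cells and germ cells.

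Levels are percentages of reads that were methylated, pooled over all CpGs of a zone. The start zone lies within 1 kb of the transcription start. The body lies inside the gene more than 1 kb from either end and from the start, the far end zone within 1 kb of the other end, and the flank 1 to 2 kb outside the gene. A zone needed at least 5 CpGs. The members held 139167 reads over cytosines in the TSPAN8-high library and 139124 in the TSPAN8-low library, and the typical cytosine had 10 reads (median, both libraries). Of all 15807 measured protein-coding genes, 84.3% had a start zone below 20% in both libraries. Among measured germ cell genes it was 6 of 7, near that share, so the count does not set them apart. Ddx4 was at 2.07% in the TSPAN8-high and 0.903% in the TSPAN8-low library, and Dnd1 was the exception (96.0% and 95.6%). Of 8 genes listed as maternally methylated imprints, which male germ cells carry unmethylated, 6 had a measured start. All 6 were below 20% in both libraries (Peg3 at 0.754% and 0.820%), against 84.3% of all genes. This count does not set them apart either. Pooled start levels of other testis cell types were 3.12% and 3.52% for Sertoli genes (5 of 6 below 20%), 22.8% and 29.4% for Leydig genes (2 of 4), 30.3% and 31.3% for peritubular myoid genes (1 of 4), 17.1% and 17.2% for endothelial genes (1 of 3) and 91.9% and 96.2% for macrophage genes (0 of 2). A low start level is not a measure of expression, and the part of other cell types in the results below was not tested.

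The promoter sequences of 26 of the 35 genes were available from RefSeq (GRCm38.p6, 250 bases before to 50 bases after the start). They held a median of 27 CpGs in 300 bases, against 13 over 17492 protein-coding genes, with a median GC content of 65.8% against 56.3%. The most CpG-poor were Bmp5 with 4 CpGs, Inha with 5 and Bmpr1b with 5, and these are the 3 members whose start zones were not below 20% in both libraries. Promoters at both ends of this range are shown 5′ to 3′ along the gene, with CpGs in capitals. Bmp5 (chr9:75775115-75775414, plus strand) and Inha (chr1:75507359-75507658, plus strand) had methylated start zones. The Inha window lies wholly inside the gene span, which begins at chr1:75507077. Bmp4 (chr14:46390620-46390919, minus strand) and Bmpr1a (chr14:34502497-34502796, minus strand) had unmethylated ones.
Bmp5: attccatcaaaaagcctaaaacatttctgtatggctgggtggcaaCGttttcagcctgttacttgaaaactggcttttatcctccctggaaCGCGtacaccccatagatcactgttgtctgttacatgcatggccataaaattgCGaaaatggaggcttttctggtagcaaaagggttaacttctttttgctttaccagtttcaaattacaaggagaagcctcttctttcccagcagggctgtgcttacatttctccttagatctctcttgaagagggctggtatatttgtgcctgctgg
Inha: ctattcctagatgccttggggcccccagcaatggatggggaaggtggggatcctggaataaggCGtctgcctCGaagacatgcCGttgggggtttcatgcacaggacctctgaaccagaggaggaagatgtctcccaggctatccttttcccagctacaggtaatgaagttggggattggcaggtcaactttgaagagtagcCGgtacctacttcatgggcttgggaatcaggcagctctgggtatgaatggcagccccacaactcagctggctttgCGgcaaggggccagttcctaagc
Bmp4: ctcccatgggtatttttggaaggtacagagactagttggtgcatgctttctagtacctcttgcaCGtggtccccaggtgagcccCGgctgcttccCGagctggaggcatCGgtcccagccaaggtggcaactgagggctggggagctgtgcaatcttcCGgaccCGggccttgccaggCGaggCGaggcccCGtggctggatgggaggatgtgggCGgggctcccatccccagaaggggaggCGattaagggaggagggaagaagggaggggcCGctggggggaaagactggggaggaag
Bmpr1a: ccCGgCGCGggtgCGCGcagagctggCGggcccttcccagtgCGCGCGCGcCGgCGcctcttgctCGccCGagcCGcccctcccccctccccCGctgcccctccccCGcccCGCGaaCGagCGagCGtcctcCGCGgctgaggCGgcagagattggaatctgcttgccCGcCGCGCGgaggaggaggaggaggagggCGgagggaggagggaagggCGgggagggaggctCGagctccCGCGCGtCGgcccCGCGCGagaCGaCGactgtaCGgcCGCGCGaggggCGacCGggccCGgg

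Within these windows, 11 of the 12 Bmp4 CpGs were measured, with 1 of 98 reads methylated in TSPAN8-high and 0 of 87 in TSPAN8-low, which allows up to 3.45%. In Bmpr1a 11 of 48 CpGs were measured, with 0 of 188 (up to 1.60%) and 3 of 228 reads methylated. The Bmp5 window had 1 measured CpG, methylated in 4 of 5 and in 5 of 5 reads, and the Inha window had none. The letters GGCGCC, a SMAD-binding sequence on BMP target genes that reads the same on both strands, occurred in 8 of the 26 member promoters (30.8%) and in 15.4% of all listed promoters. Their CpGs were measured at 3 of the 8 (Grem1, Smad5 and Chrd), where 0 of 70 (TSPAN8-high) and 0 of 68 reads (TSPAN8-low) were methylated, which allows up to 4.29% and 4.41%. The palindrome GTCTAGAC, another SMAD-binding sequence, occurred in 1 member promoter, that of Smad6 (3.85%, against 0.212% of all). These motifs cannot share a base, and a match describes letters only. GGCGCC consists of G and C with a CpG, and member promoters are richer in GC and CpGs than all listed promoters. The part of this in the shares was not tested.

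Most member starts were unmethylated in both libraries, as most gene starts were. Of 35 start zones 32 were below 20% in both libraries, against 84.3% of 15807 protein-coding genes, and 30 were below 5% in both. The members' median start level was 1.04% in each library, and over all genes it was 1.73% (TSPAN8-high) and 1.76% (TSPAN8-low). Bodies ranged far more widely, from 3.53% to 95.5% in TSPAN8-high, and their median of 78.5% (80.7% in TSPAN8-low) lay below that of all genes (91.0% and 91.2%). Single member cytosines were mostly at an extreme: 38.8% of them were below 20% in each library and 53.7% (TSPAN8-high) or 53.8% (TSPAN8-low) above 80%, against 19.3%, 68.9% and 69.4% over all listed cytosines.

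**Figure D1:**
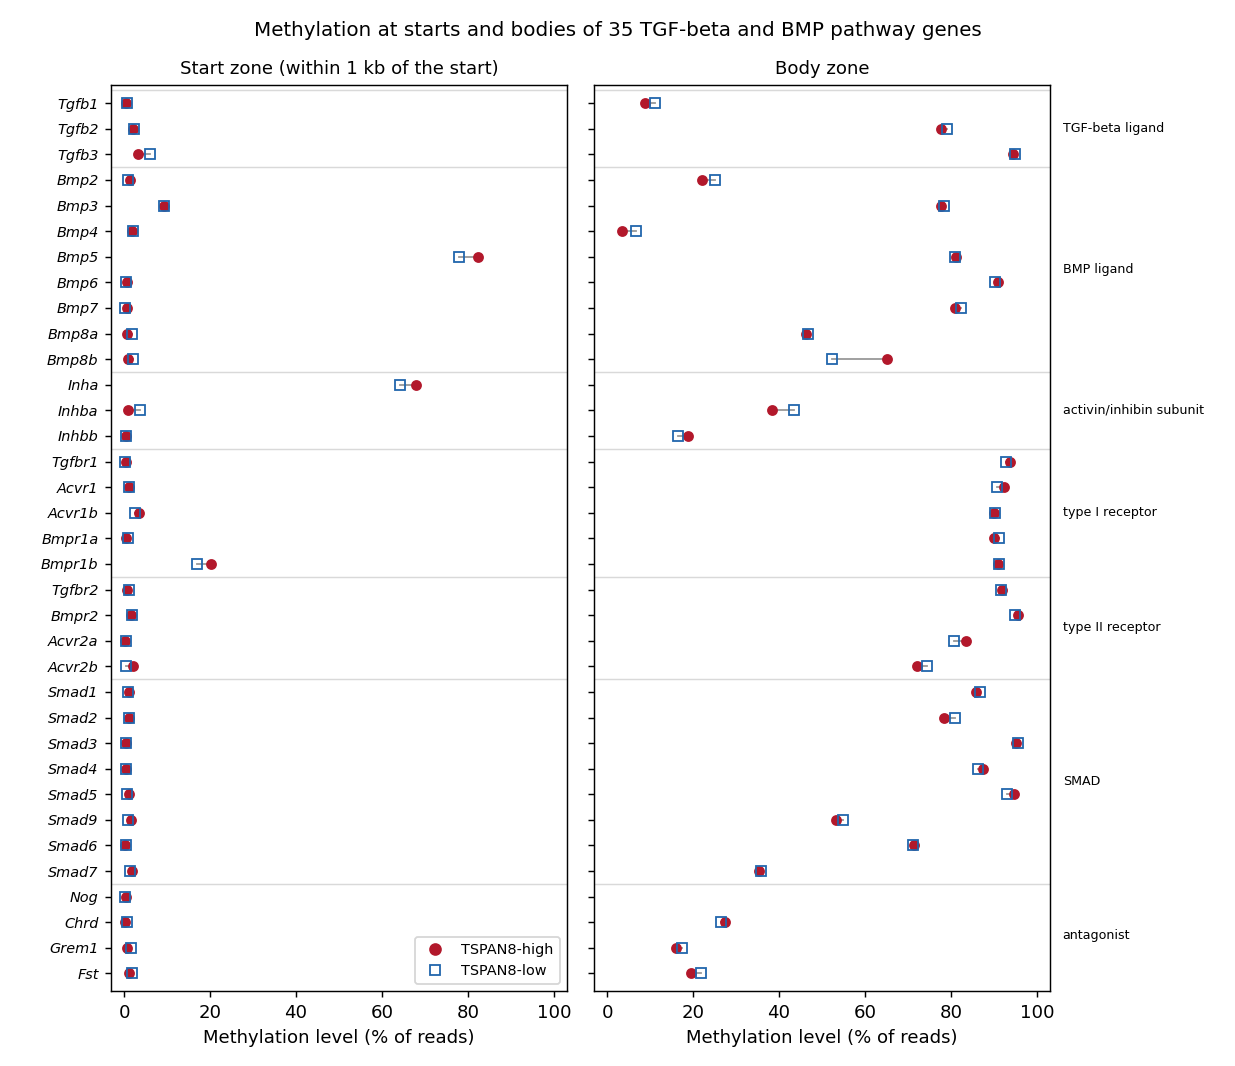
Methylation level (x axis, % of reads) of the start zone (left) and body (right) of each member, grouped by role, with filled points for TSPAN8-high and open squares for TSPAN8-low, 1 library each. Starts sit near 0% except for Bmp5, Inha and Bmpr1b, while bodies range from 3.53% to 95.6%; Inha and Nog have no body of 5 CpGs.

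Among the TGF-beta ligands, Tgfb1 (chr7:25687002-25705077) had an unmethylated start (0.513% in TSPAN8-high, 0.773% in TSPAN8-low) and also a low body, at 8.88% and 11.3%. Its far end zone was at 7.26% and 9.90%. Tgfb2 and Tgfb3 had the usual contrast, with starts at 2.19% and 2.22%, and 3.28% and 5.99%, and bodies at 77.7% and 79.1%, and 94.4% and 94.9%. Tgfb1 was therefore the ligand of this subfamily in which most of the measured gene was unmethylated.

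BMP ligands split by their bodies. Bmp4 (chr14:46383525-46390669), a ligand required for the formation of germ cells, had the lowest body of all members, at 3.53% and 6.79%. Bmp2 followed at 22.2% and 25.2%, and Bmp8a at 46.2% and 46.8%, while Bmp8b was at 65.1% and 52.4%. Bmp3, Bmp5, Bmp6 and Bmp7 had bodies between 77.7% and 90.9%. Bmp5 (chr9:75775365-75900316) was the ligand with a methylated start, at 82.3% (51 of 62 reads over 7 CpGs) and 77.9% (60 of 77). The start of Bmp3, a ligand that opposes other BMPs, was at 9.19% and 9.35%, above the remaining low starts.

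Activin and inhibin subunits differed from one another. Inhba (chr13:16004256-16031609) and Inhbb (chr1:119415463-119422248), which build the activins, had starts at 1.00% and 3.60%, and 0.382% and 0.487%. Their bodies were at 38.4% and 43.6%, and 18.8% and 16.6%. Inha (chr1:75507077-75510366), the subunit found in inhibins, had a start at 67.8% (99 of 146 reads over 9 CpGs) and 64.2% (70 of 109), while its far end zone was at 2.37% and 0.709% and its flank at 3.99% and 3.94%. The low flank lies beside the end of the neighbouring gene Obsl1 (chr1:75485825-75506486). The unmethylated stretch counted below for Inha (chr1:75504837-75506739) spans that end of Obsl1 and does not reach the Inha start. The start used for Inha (chr1:75507609) lies inside the gene span, so its methylated start level holds for the start used.

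Most receptor genes had unmethylated starts and methylated bodies, as most long genes did. Of the 9 receptor genes 7 (77.8%) had a start below 20% and a body above 80% in both libraries. This contrast was found at 14 of 33 members with both zones (42.4%) and at 61.9% of 14067 genes. The receptor genes span 39613 bp or more, and longer genes had the contrast more often. Among genes of 50 kb or more it was 3263 of 4350, and among such members 11 of 16 (68.8%). Between 12 and 50 kb it was 62.8% of genes and 3 of 11 members (27.3%). The part of role beyond span was not tested. With the body taken between 2-kb end zones, 21 of 33 members (63.6%) had this contrast, against 72.1% of genes. Tgfbr1, Acvr1, Acvr1b and Bmpr1a, the type I receptors with a start below 5%, had bodies between 89.9% and 93.8%. Tgfbr2 and Bmpr2, type II receptors for TGF-beta and BMPs, were at 91.8% and 91.7%, and at 95.5% and 94.96%, and the activin receptor Acvr2a at 83.6% and 80.7%. The other two were Acvr2b, another type II receptor for activins, with a body at 72.2% and 74.4%, and Bmpr1b, a type I BMP receptor with a start at 20.2% (18 of 89 reads over 8 CpGs) and 16.9% (22 of 130). The outer end of the Bmpr1b span, 187321 bp from the start used, was CpG-rich and unmethylated: 1.06% and 3.78% over 43 CpGs. Other members with an outer end more than 1 kb from the start used had higher levels there. These were Tgfb2 (96.8% and 95.8% over 4 CpGs), Inhba (100% and 88.9% over 1 CpG) and Chrd (57.9% and 65.0% over 9 CpGs). The low start levels given for these genes therefore hold for the start used.

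SMAD genes all had starts below 2% in both libraries. The receptor-regulated Smad1, Smad3 and Smad5 and the common partner Smad4 had bodies between 85.9% and 95.6%. Smad2 was at 78.5% and 81.0% and Smad9 at 53.3% and 54.8%. Of the inhibitory SMADs, Smad6 was at 71.4% and 71.1% and Smad7 at 35.3% and 35.8%. Smad7 was the 1 SMAD of 8 with a body below 50% in both libraries.

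Each antagonist gene was unmethylated over most of what was measured. Chrd, Grem1 and Fst had bodies at 27.6% and 26.6%, 16.1% and 17.4%, and 19.6% and 21.9%. Nog, which spans 1922 bp and has no body by this definition, was at 0.358% and 0.198% at its start and at 4.46% and 4.19% at its far end. Over all roles 10 of 33 members (30.3%) had a body below 50% in both libraries, against 11.1% of genes. With the body taken between 2-kb end zones the count was 6 (18.2%), against 6.39% of genes. The 10 were 3 of 3 antagonists, 2 of 2 activin subunits, Tgfb1, Bmp2, Bmp4, Bmp8a and Smad7, and 0 of 9 receptors. The members below 50% were short: 6 of 6 members spanning under 12 kb, against 29.3% of genes of that span, then 4 of 11 between 12 and 50 kb, against 8.01%, and 0 of 16 of 50 kb or more, against 1.72%. The 4 antagonist genes span 1922 to 10960 bp and the receptor genes 39613 bp or more, so for these roles the parts of role and span cannot be told apart.

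How far the unmethylated state reached from each start was measured in 200-bp bins, extended outward while the level of both libraries together stayed below 20%. The members' stretches had a median width of 2370 bp, against 1099 bp over 19920 genes. Counting only genes whose start is below 20%, the medians were 2602 and 1530 bp. Stretches wider than the 90th percentile of genes were found at 16 of 35 members (45.7%), with a background of 9.98% of genes by construction. The widest was at Fst, with 5669 bp and 94 measured CpGs, reaching 2827 bp upstream and 2841 bp into the gene. The stretch of Nog covered 5379 bp with 135 CpGs and ran past the far end of the gene. Smad6 with 4428 bp, Smad7 with 4298 bp and Bmp2 with 3552 bp came next. The narrowest were Bmp5 with 0 bp, Bmpr1b with 369 bp and Smad1 with 975 bp.

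**Figure D2:**
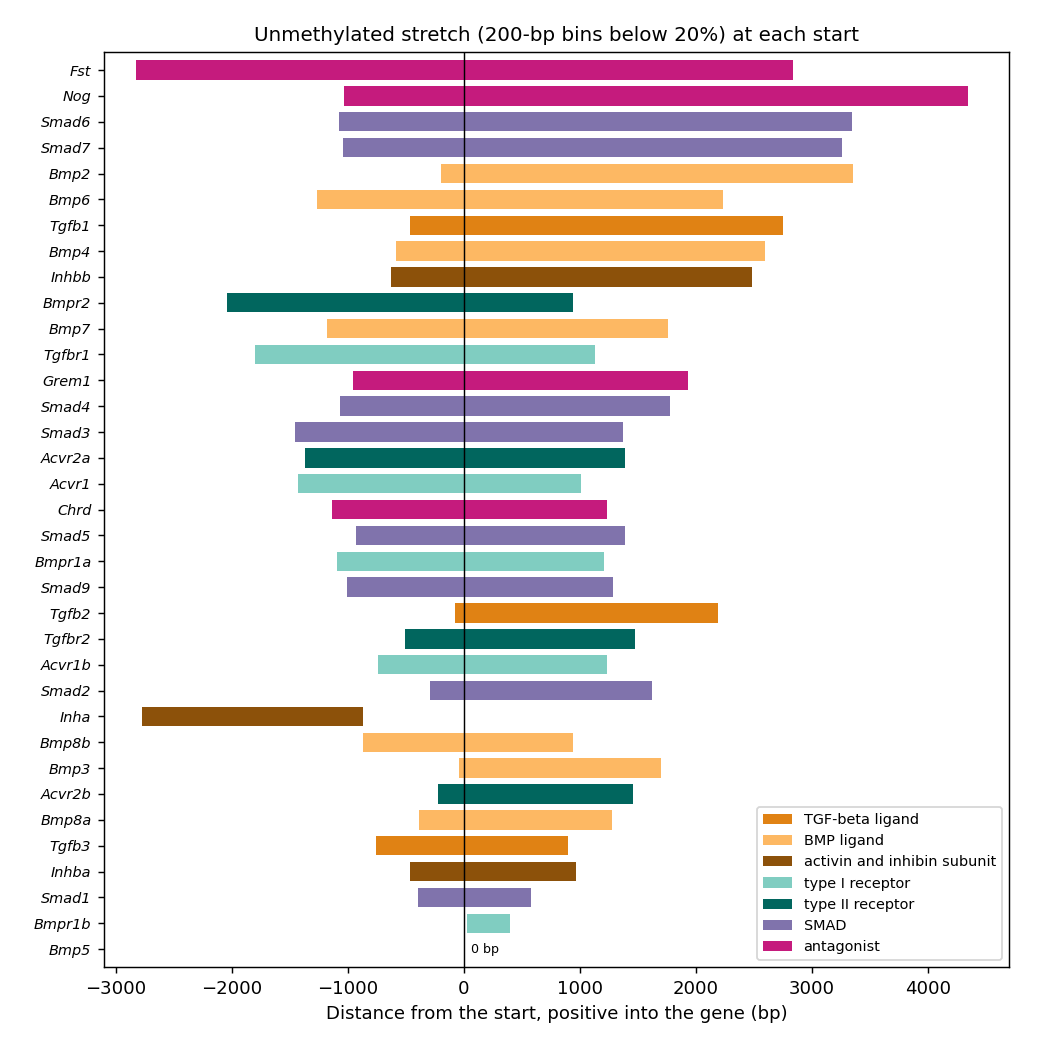
Extent of the unmethylated stretch of each member in base pairs from the start (x axis; negative values lie upstream), 1 bar per gene, coloured by role and sorted by width, both libraries together. Fst, Nog, Smad6, Smad7 and Bmp2 have the widest stretches (3552 to 5669 bp), Bmp5 has none, and that of Inha lies wholly upstream of the start.

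Of the 10 members with a body below 50%, 9 had body CpGs inside their stretch, against 26 of 33 members (78.8%) and 29.7% of genes. The median share of body CpGs inside was 66.8% for the 10, 6.11% for the 33 members and 0% for all genes. Stretches are defined by low levels in the same reads, so body CpGs inside them are low by construction. In Bmp2, 54 of 70 body CpGs lay inside the stretch, and the rest of the body was at 97.3% and 94.3%. Fst had 37 of 50 body CpGs inside and 87.2% and 84.0% outside, and Chrd 12 of 19 inside and 97.6% and 98.8% outside. For Smad7 it was 81 of 160 inside, with 92.4% and 93.2% outside, and for Inhbb 59 of 80, with 74.5% and 75.9%. Grem1 had 19 of 27 inside and 77.9% and 86.5% outside. Tgfb1 had 74.5% of its body CpGs inside, and the rest of its body was at an intermediate 52.3% and 60.4%. Outside the stretch 4 of these 10 bodies were above 80% in both libraries, with medians of 76.2% (TSPAN8-high) and 79.96% (TSPAN8-low) over the 10, against 78.3% of 16267 genes and medians of 93.4% and 93.5%. Over all 33 members it was 25 (75.8%), with medians of 91.3% and 91.1%.

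In Bmp4, Inhba and Bmp8a the body stayed below 50% outside the stretch as well. The Bmp4 body outside the stretch was still at 7.07% and 12.2%, and a tile of 23 CpGs more than 5 kb from the start (chr14:46385001-46386000) had 16 of 560 and 14 of 367 reads methylated. In Inhba none of the 28 body CpGs lay in the stretch, and a tile of 14 CpGs in the body (chr13:16017001-16018000) had 0 of 222 reads methylated in TSPAN8-high, which allows up to 1.35%, and 3 of 181 in TSPAN8-low. That tile lies inside the overlapping gene B230303A05Rik. Over all members, 17 of 652 body tiles of 1 kb away from the start and from other coding starts were below 20% in both libraries (2.61%), against 3.29% of 263049 such tiles in all genes. They lay in 8 genes, with 5 in Smad9 and 3 each in Acvr2b and Bmpr1b. In Bmp8a 3 of 67 body CpGs lay in the stretch, and the rest of its body was at 47.0% and 47.8%. The tiles in this paragraph were chosen after their values were seen.

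**Figure D3:**
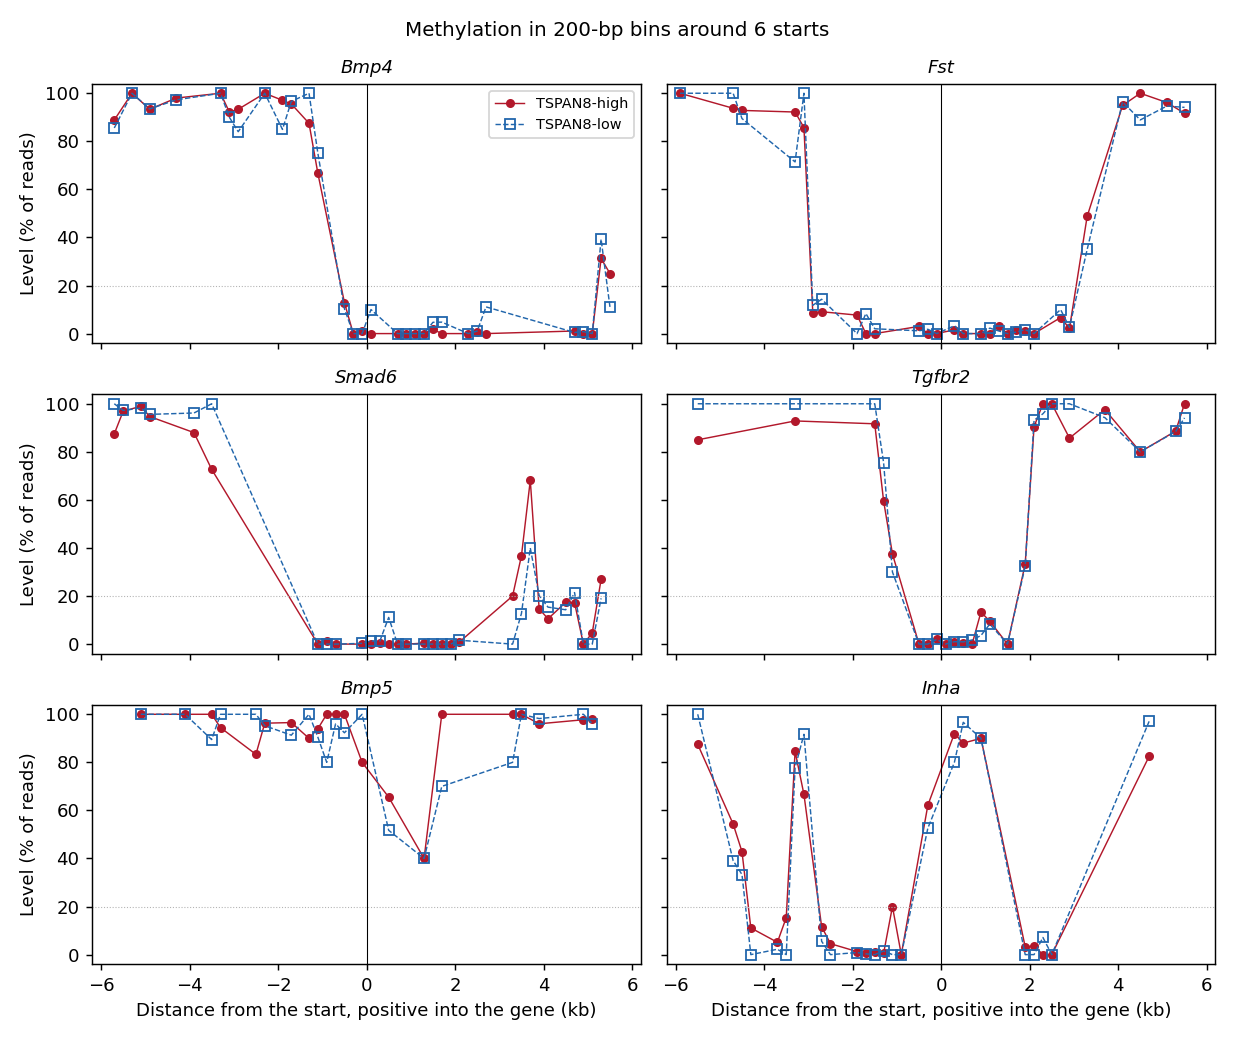
Methylation level (y axis, % of reads) in 200-bp bins by distance from the start in kb (x axis) for 6 members, with filled points for TSPAN8-high and open squares for TSPAN8-low. Bmp4, Fst and Smad6 are near 0% for kilobases into the gene, Tgfbr2 returns to high levels by 2 kb, and Bmp5 and Inha are methylated around the start.

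Between TSPAN8-high and TSPAN8-low cells, no member passed the test at its start. Reads pooled over each zone were compared with Fisher's exact test, adjusted over all genes, and a zone was called at an adjusted p below 0.05 with a difference of at least 10 percentage points. At this threshold 0 of 35 start zones were called, against a background of 0.601% of genes, and 4 (11.4%, against 17.0% of genes) had an unadjusted p below 0.05. The 3 largest start differences, TSPAN8-high minus TSPAN8-low, were at the starts with fewest CpGs. They were 4.34 percentage points for Bmp5 (95% interval −9.40 to 17.2), 3.59 for Inha (−7.96 to 15.3) and 3.30 for Bmpr1b (−6.89 to 14.3). In the 32 unmethylated starts the largest difference was 2.71 percentage points, at Tgfb3, and the 95% intervals together ran from −6.51 to 3.56, with 28 of the 32 including 0. At any size of difference 1 start was past the adjusted threshold, against 4.14% of genes. This was Bmpr1a, the BMP type I receptor whose promoter is shown above, with 13 of 3397 reads methylated (0.383%) in TSPAN8-high and 30 of 2909 (1.03%) in TSPAN8-low (Fisher's exact test, adjusted p = 0.0489). It was past the threshold in 0 of 9 alternatives, and at 20 reads (0.424% and 0.266%) and with 1 CpG per 100 bp (0.374% and 0.221%) the direction turned.

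**Figure D4:**
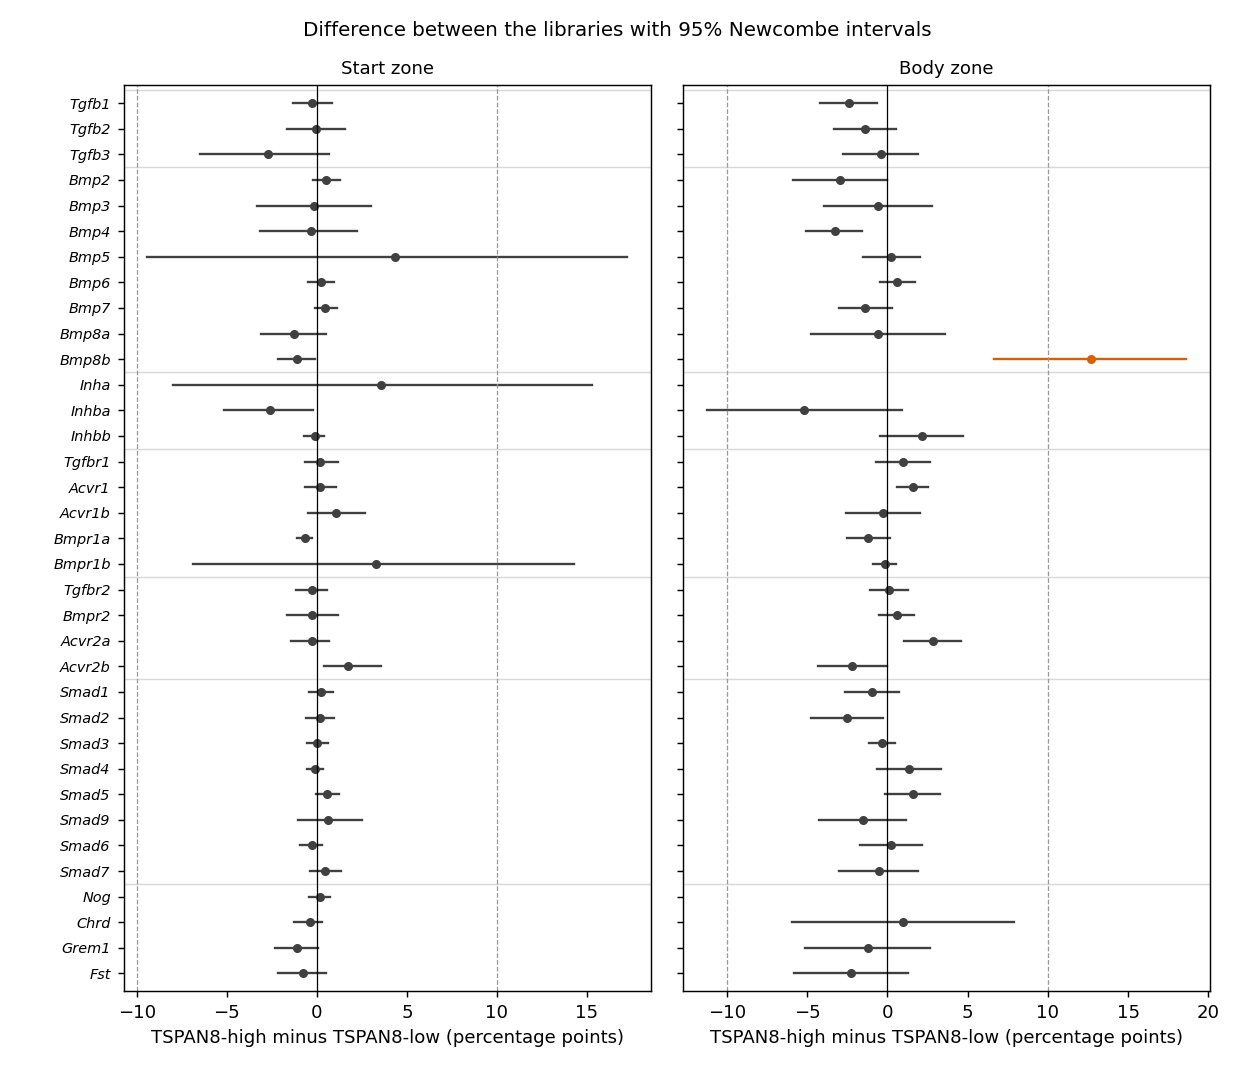
Difference in methylation level between the libraries (x axis, TSPAN8-high minus TSPAN8-low, percentage points) for the start zone (left) and body (right) of each member, with 95% Newcombe intervals that cover counting error only. Dashed lines mark 10 percentage points; the Bmp8b body, in orange, at 12.7, is the only zone shown that was called, and Bmp5, Inha and Bmpr1b have the widest start intervals.

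In the bodies 1 of 33 members was called, against 0.694% of 16709 genes, and 8 (24.2%, against 19.9% of genes) had an unadjusted p below 0.05 by Fisher's exact test. It was Bmp8b, a BMP ligand expressed in germ cells (chr4:123104308-123126094), with 312 of 479 reads methylated (65.1%) in TSPAN8-high and 281 of 536 (52.4%) in TSPAN8-low. The difference was 12.7 percentage points (95% interval 6.65 to 18.6), and Fisher's exact test gave an adjusted p of 0.00239. The Bmp8b body holds the nested gene Oxct2b (chr4:123116248-123118000), and the 2 tiles of 1 kb there were unmethylated, with 6 of 157 reads in TSPAN8-high and 4 of 234 in TSPAN8-low. These tiles held 32.8% of the body reads of TSPAN8-high and 43.7% of those of TSPAN8-low. Without them 306 of 322 and 277 of 302 reads were methylated (95.03% and 91.7%), a difference of 3.31 percentage points with an interval of −0.628 to 7.42. Averaging cytosines with equal weight gave 59.4% and 56.3%. The minus strand differed by 18.5 percentage points and the plus strand by 2.17.

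**Figure D5:**
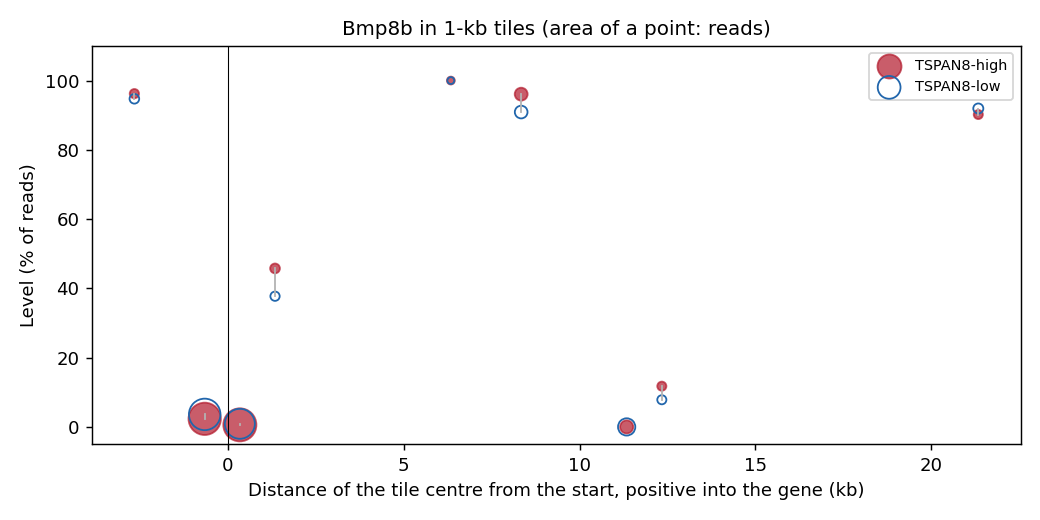
Methylation level (y axis, % of reads) of 1-kb tiles across Bmp8b by distance of the tile from the start in kb (x axis), with filled points for TSPAN8-high and rings for TSPAN8-low; point area is proportional to reads. The 2 unmethylated tiles beside Oxct2b lie 11 to 12 kb into the gene, and the methylated tiles of the body differ little between the libraries.

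Its near-identical copy Bmp8a had a matching layout on the same chromosome. Its body tiles beside Oxct2a were at 0.813% and 0.286%, and at 0% (up to 1.76%) and 3.26%, while its other body tiles were at 80% or more in both libraries. Its whole body differed by −0.595 percentage points. Reads of such copies may be placed on either gene. The median cytosine of Bmp8b had 9.5 reads (TSPAN8-high) and 9 reads (TSPAN8-low).

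Without the minimum difference 4 bodies were past the adjusted threshold, against 6.85% of genes. Besides Bmp8b these were 3 by small differences. Bmp4 was at 55 of 1560 reads (3.53%) against 74 of 1090 (6.79%), a difference of −3.26 percentage points (95% interval −5.10 to −1.56), for which Fisher's exact test gave an adjusted p of 0.00596. It did not pass at 10 reads, with 1 CpG per 100 bp or on the plus strand (adjusted p = 0.0823, 0.184 and 0.468 by Fisher's exact test). The activin type II receptor Acvr2a was 2.82 higher in TSPAN8-high and the type I receptor Acvr1 1.57 higher (Fisher's exact test, adjusted p = 0.0366 and 0.0347), and each stayed past the threshold in 2 of 6 alternatives. The start at the outer gene end, counted among these passes, leaves the levels of these bodies unchanged and is no separate check. Inhba, with the second largest body difference of all members at −5.19 percentage points, did not pass (95% interval −11.3 to 0.922).

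Far ends and flanks gave 0 calls among 22 measured members each, against 0.555% and 1.2% of genes, with 2 (9.09%) and 1 (4.55%) at an unadjusted p below 0.05 by Fisher's exact test, against 11.4% and 13.3% of genes. The largest of these differences was at the far end of Smad7, where 28 of 55 reads (50.9%) in TSPAN8-high and 41 of 56 (73.2%) in TSPAN8-low were methylated over 5 CpGs. It was −22.3 percentage points with a 95% interval of −38.5 to −4.26, and did not pass Fisher's exact test after adjustment (adjusted p = 0.294). With cytosines weighted equally and no test, 2 far ends differed by 10 percentage points or more, those of Bmp4 and Smad7, against 2.98% of genes.

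At finer scale 0 of 845 member tiles of 1 kb were called, against 0.269% of all tiles, and 73 (8.64%, against 8.60% of all tiles) had an unadjusted p below 0.05 by Fisher's exact test. The tile with the smallest p, named after its values were seen, lies in the body of Bmp6 (chr13:38488001-38489000), more than 142 kb from the start. It had 127 of 196 reads methylated (64.8%) in TSPAN8-high and 81 of 177 (45.8%) in TSPAN8-low (adjusted p = 0.0608 by Fisher's exact test). Keeping only cytosines with 10 reads, it was called at 58.3% and 25.5% over 3 CpGs (adjusted p = 0.00165 by Fisher's exact test), 1 of 2 member tiles called there, against 0.649% of all tiles. On a grid moved by 500 bp the tile overlapping it was called at 64.4% and 44.5% (adjusted p = 0.0438 by Fisher's exact test), again 1 of 2 member tiles, against 0.285% of all. Of 11140 member cytosines 0 were called, against 0.00111% of all, and 124 had an unadjusted p below 0.05 by Fisher's exact test (1.11%, against 1.46% of all cytosines). A p below 0.05 stood at 124 member cytosines (1.11%) and at 1.45% of all cytosines in the authors' deposited table.

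Widths of the unmethylated stretches were the same in both libraries at 25 of 35 members (71.4%, against 76.8% of genes), wider in TSPAN8-high at 3 and in TSPAN8-low at 7. At Smad6 the stretch was 3159 bp in TSPAN8-high and 4613 bp in TSPAN8-low. The bins that set this edge had 2 of 10 against 0 of 11 reads methylated, 36 of 98 against 14 of 110, and 15 of 22 against 4 of 10. At Bmpr2 it was 1497 and 2988 bp, set by 1 bin with 10 of 50 and 0 of 40 reads methylated. At Inha, whose stretch lies upstream of the start and across the end of Obsl1, it was 2 and 1903 bp. No test was made of widths.

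Further genes of the pathway, 75 listed by role, were read the same way. At the start 57 of 68 were below 20% in both libraries, against 84.3% of genes, and 0 were called, against 0.601%. In the body 1 of 67 was called, against 0.694% of genes: the ligand gene Gdf1, at 39.2% and 51.8%, 12.6 percentage points lower in TSPAN8-high (Fisher's exact test, adjusted p = 0.00232). At the far end 1 of 44 was called, against 0.555% of genes. This was Ltbp2, of the latent TGF-beta binding protein family, at 86.7% and 71.4%, 15.3 percentage points higher in TSPAN8-high (Fisher's exact test, adjusted p = 0.0134). In the flank 1 of 37 was called, against 1.2% of genes, at Smurf2, a ubiquitin ligase that targets SMADs and receptors. Its flank was at 69.6% and 41.2%, 28.4 percentage points higher in TSPAN8-high (Fisher's exact test, adjusted p = 9.21e-08). Differences of more than 10 percentage points that did not pass were seen at the starts of the antagonist Dand5 (51.7% and 36.5%) and of the inhibin subunit gene Inhbc (14.6% and 27.3%), and in the body of the antagonist Sostdc1 (49.7% and 64.2%). Others were at the far end of Inhbe (52.2% and 38.8%) and the flank of Lefty2 (50% and 39.0%).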

How the data were processed

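Methylation was measured by RRBS in 2 libraries, 1 per group, from 300 ng of DNA read as paired 50-base reads, per the labels' protocols. The authors deposited 1 table with a row per cytosine, which per the file headers holds a methylated fraction (to 2 decimals), a read count per library, a difference between the fractions and a p-value. The submitters' processing notes name mm10, mm9, Bowtie and SICER without saying which data each was used for; coordinates here fit GRCm38.p6. How the fractions were called from reads is not given in the sources used here. Methylated reads were computed as fraction times count. The deposited p-values equalled Fisher's exact test on these reads at 93.6% of cytosines, within 0.001 of the value or 0.0001.

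A cytosine was used where each library had 5 reads or more. Two-sided Fisher's exact tests with Benjamini-Hochberg adjustment ran over all genes, tiles (at least 3 CpGs) or cytosines (at least 20 percentage points) in Python 3.11.15 with numpy 2.4.6, scipy 1.17.1 and numba 0.67.0. Differences have Newcombe intervals. A read over several CpGs counts at each, and PCR copies cannot be told apart, so p-values are too small and intervals cover counting error only; they compare 2 libraries, not conditions. In simulated data on the real depths, differences of 20 percentage points were recovered at 93% of start zones, 94% of bodies, 83% of far ends, 78% of flanks, 28% of tiles and 0% of chromosome 1 cytosines.

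The start was the outermost one in the RefSeq promoter table (26 members), otherwise the gene end with more CpGs (Smad2, Smad4, Smad7, Bmp2, Bmp3, Bmp7, Tgfb3, Nog and Fst). The members and lists were chosen with earlier results of these data known. Named are members called in any zone, those with a start at 20% or more, the 5 widest and 3 narrowest stretches, the 3 largest start and body differences, and for further pathway genes those called and the 2 largest differences per zone. The use of the outermost start, the 90th percentile for wide stretches, the level outside the stretch, the body tiles and the promoters shown were chosen after the data were seen.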

Additional observations from a re-analysis of the deposited data

How the results depend on the processing

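No paired analysis was possible because each group is 1 library and the labels give no replicate numbers. The count of called start zones stayed at 0 of the measured members under 10 alternatives and was 1 (Bmpr1a) with no minimum difference. The 1 called body (Bmp8b) became 0 at a minimum of 20 reads, where 25 bodies were measured and Bmp8b was not among them. With Bmp8b measured, the count was also 0 with 1 CpG per 100 bp (9.81 percentage points, adjusted p = 0.114 by Fisher's exact test). The same held on the plus strand (2.17), with an unweighted mean (3.14) and with the start at the outer gene end (0.761, added after the data were seen). With no minimum difference the count was 4. Without the 2 tiles beside Oxct2b, also added afterwards, Bmp8b differed by 3.31. The far end count was 2 (Bmp4 and Smad7) with an unweighted mean, against 2.98% of genes, and the flank count stayed at 0 under 8 alternatives. Called tiles numbered 2 at 10 reads (Bmp2 and Bmp6, against 0.649% of tiles) and 2 with the grid moved by 500 bp (Smad6 and Bmp6, against 0.285%). Members with a body below 50% numbered 6 instead of 10 between 2-kb end zones (18.2%, against 6.39% of genes), and those with a start below 20% and a body above 80% 21 instead of 14. The small differences past the adjusted threshold held in 0 of 9 alternatives for the Bmpr1a start and in 2 of 5 for Bmp4, 2 of 6 for Acvr1 and 2 of 6 for Acvr2a bodies, and the Acvr2a difference was −0.386 at 20 reads. For the Bmp4, Acvr1 and Acvr2a bodies the passes include the start at the outer gene end, which leaves their levels unchanged and is no separate check. The median stretch width and the count of wide stretches moved by less than the limit of 1.5 times under 7 alternatives each. The causes of these changes were not tested, other than that a higher read minimum leaves fewer CpGs. Nothing here can be weighed against the spread between animals or sorts, and at single cytosines a median of 10 reads left even differences of 40 percentage points mostly undetected in simulation (1% recovered on chromosome 1).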
